A study of Mus musculus with 2 samples.

Results

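The atypical chemokine receptors are the 4 genes Ackr1, Ackr2, Ackr3 and Ackr4, found by their symbols among the 32285 genes of single-cell RNA-seq matrices from mouse aorta. Each gene had a different distribution over the cell types. Ackr1 was highest in venous endothelial cells and was 2.30-fold higher in the library with endothelial deletion of CD45. Ackr4 was highest in lymphatic endothelial cells, where it was at 118 CPM in WT and 10.1 CPM in that library (UMIs per 1000000 UMIs). Ackr3 was spread over endothelial, smooth muscle and fibroblast-like cells, and was 2.04-fold higher in arterial endothelial cells of that library. Within the lymphatic cells the few UMIs of Ackr2 were found in cells with the chemokine Ccl21a, and nearly all UMIs of Ackr4 in cells without it. The genes were chosen by their levels per cell type and library, with earlier results of these data known, so those levels are given as a description and without a test.

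Chemokines are small secreted proteins that guide leukocytes through G protein-coupled receptors. Atypical receptors bind chemokines but do not couple to G proteins in the usual way. They take up, transport or present the ligand, and so shape how much of it the signalling receptors meet. Ackr1, also called DARC, binds inflammatory chemokines of both the CC and CXC families, carries them across the endothelium of venules, and is also known from erythrocytes. Ackr2 scavenges inflammatory CC chemokines and is known from lymphatic endothelium. Ackr4 scavenges Ccl19, Ccl21 and Ccl25, the ligands of Ccr7 and Ccr9, and is known from the lymphatic endothelium of the outer sinus wall of lymph nodes. Ackr3 takes up Cxcl12, the ligand of Cxcr4, as well as the vascular peptide adrenomedullin (Adm), and is known from endothelium, smooth muscle and connective tissue.

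Each group had 1 library. The WT mice were deficient in ApoE, without which cholesterol builds up in the blood, had the C57BL/6 background and were fed a Western diet. The EC-iCD45KO mice shared the ApoE deficiency, background and diet, and in addition carried a tamoxifen-inducible deletion of CD45, the leukocyte phosphatase encoded by Ptprc, in endothelial cells (EC). The Cre driver, the tamoxifen given to either group, the age and sex of the mice and any pooling of animals are not given in the sources used here. Collagenases and Liberase released the cells of the aorta, and those that bound to magnetic beads against CD31, an endothelial surface protein, went into 10x Genomics libraries. No difference below has a replicate check, and every difference between the groups is also a difference between the preparations.

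After filtering, 35553 WT cells with a median of 1616 UMIs (molecular barcodes that let each captured RNA be counted once) and 26064 EC-iCD45KO cells with a median of 1510 were used. Of the deposited barcodes, 340 were present in both libraries, and 257 of these were among the cells used in each. Clusters were named from marker genes other than the receptors, and a name such as venous EC-like means only that those markers led. Levels are CPM, the UMIs of a gene per 1000000 UMIs of all cells of a class. All intervals are 95% intervals and cover counting error only. Ptprc, the deleted gene, was at 222 CPM in WT and 82.2 CPM in EC-iCD45KO venous EC-like cells, and at 286 and 107 CPM in arterial EC-like cells. It was also lower in classes which the deletion was not aimed at. These included fibroblast-like (359 and 134 CPM), smooth muscle-like (182 and 75.7 CPM) and macrophage-like cells (440 and 243 CPM). Over all cells used it was at 542 and 285 CPM. Among the named classes it was higher only in neutrophil-like (1048 and 2366 CPM) and B-like cells (752 and 1264 CPM). B-like cells made up 5788 of the WT cells and 335 of the EC-iCD45KO cells, and T/NK-like cells 3811 and 429, so the makeup of the libraries differed widely. An unnamed cluster whose leading genes include Glycam1 of high endothelial venules, Umod and Kap of kidney and Mia of cartilage held 2069 WT and 0 EC-iCD45KO cells. Another unnamed cluster, with the kidney gene Aqp2 among its leading genes, held 227 WT and 775 EC-iCD45KO cells. Over all unnamed cells, 9502 and 3026 in number, the kidney list summed to 31.9 and 58.6 CPM. These sums are not those of either cluster, and the source of that RNA was not tested.

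Ackr1 had 947 UMIs in the WT library and 2659 in the EC-iCD45KO library, and venous EC-like cells held 56.6% and 76.4% of them. Ackr3 was the most widely spread, with 1297 and 1770 UMIs. Its UMIs came from blood EC-like cells (24.1% and 32.5%), smooth muscle-like (SMC-like) cells (18.0% and 21.1%) and fibroblast-like cells (15.0% and 25.1%), and also from chondrocyte-like cells (14.3% and 2.77%) and unnamed cells (208 and 164 of the UMIs). Ackr4 had 141 and 35 UMIs, and lymphatic EC-like cells, 214 and 192 in number, held 38.3% and 14.3% of them. Ackr2 had 59 and 38 UMIs in all. Shares of UMIs depend on the number of cells of a class as well as on its level. Venous EC-like cells made up 1.93% and 3.66% of the cells used, and chondrocyte-like cells 2.17% and 0.668%. No level of one gene is set against that of another here, since the values are not scaled to gene length.

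**Figure D1:**
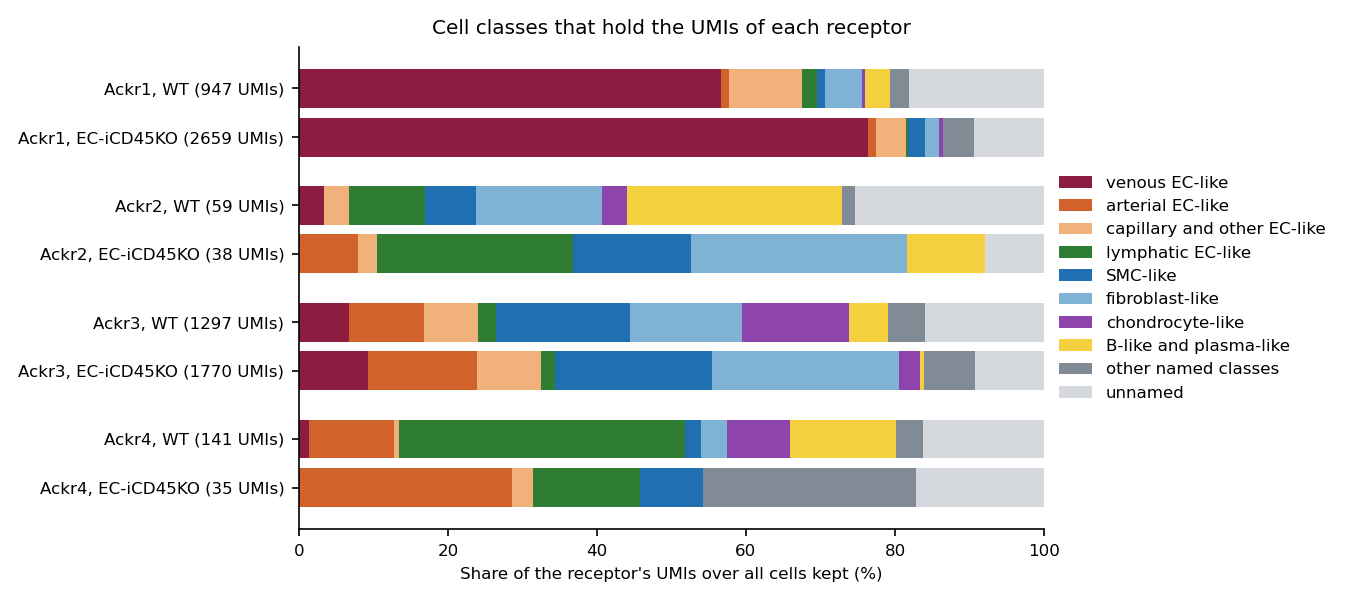
Share (%) of each receptor's UMIs held by each group of cell classes, with 1 bar per receptor and library over all cells kept. Venous EC-like cells fill 56.6% of the WT bar and 76.4% of the EC-iCD45KO bar of Ackr1, and lymphatic EC-like cells fill 38.3% and 14.3% of the bars of Ackr4.

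**Figure D2:**
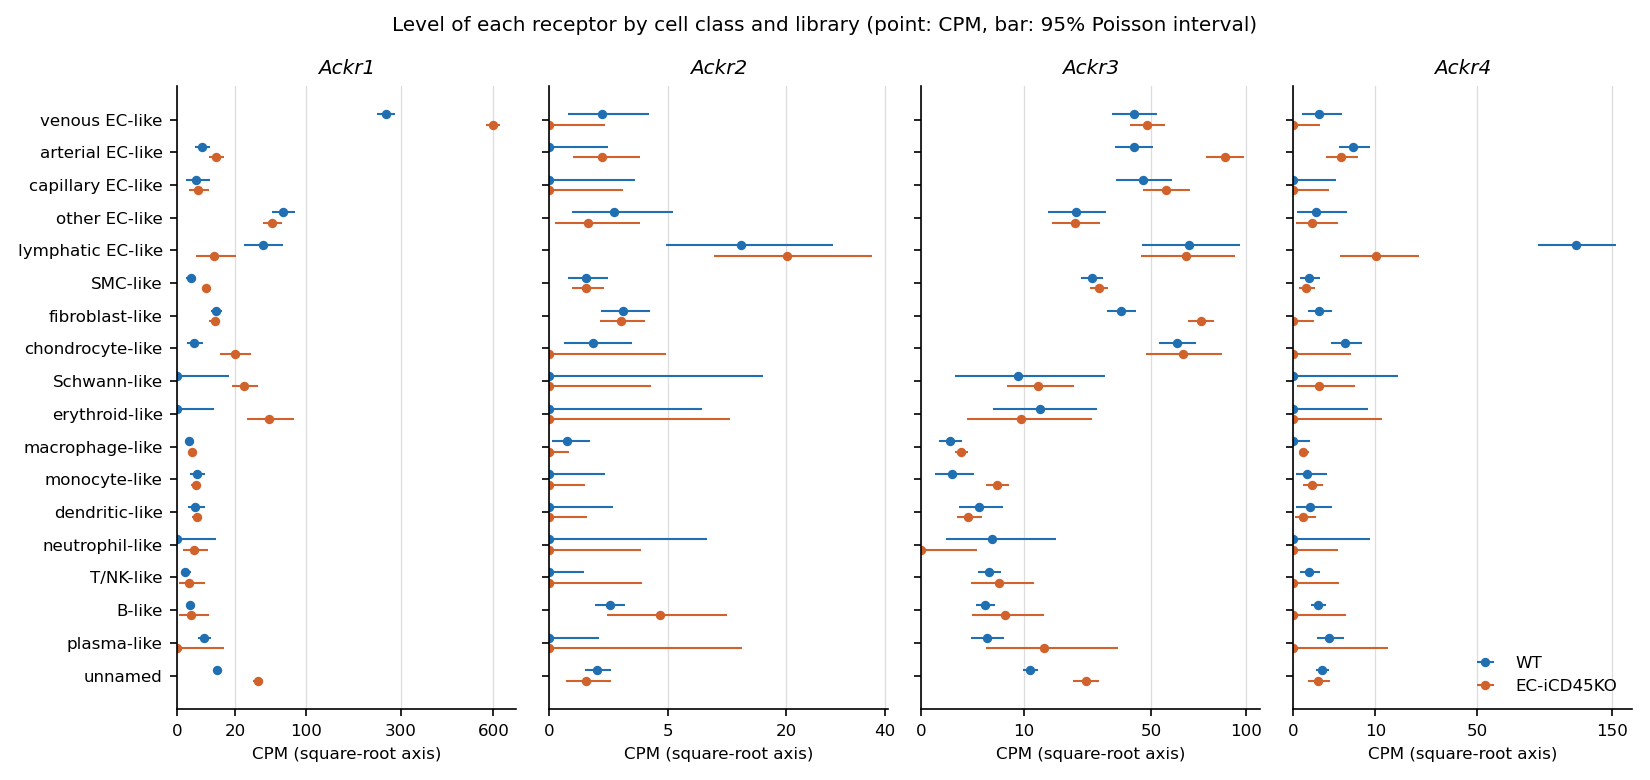
Level of each receptor in CPM (square-root axis) in 16 named classes, in EC-like cells without a subtype name and in unnamed cells, with WT in blue and EC-iCD45KO in orange. Points are the value of 1 library and bars its 95% Poisson interval. Ackr1 stands out in venous EC-like cells at 261 and 599 CPM, and Ackr4 in lymphatic EC-like cells of WT at 118 CPM.

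Ackr1 transports inflammatory chemokines across venular endothelium. In venous EC-like cells it had 536 UMIs in 686 WT cells, which was 261 CPM (239 to 284), and 2032 UMIs in 953 EC-iCD45KO cells, which was 599 CPM (573 to 625). The log2 ratio of EC-iCD45KO over WT was 1.20 (1.06 to 1.34). The intervals of the 2 libraries did not overlap, and EC-iCD45KO was the higher. Among 10878 genes with at least 5 CPM in these cells, 2.77% were at least 2-fold higher in EC-iCD45KO and 5.41% at least 2-fold lower. Of the 2 receptors that reached 5 CPM there, Ackr1 passed that fold and Ackr3 did not. As a mean of single-cell CPM the log2 ratio of Ackr1 was 0.92, which is under 2-fold.

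Other endothelial classes followed at a distance. The EC-like cells without a subtype name are mixed: their subclusters were led by H2-Aa, Ctss and C1qb, macrophage genes, and by Ighg2b, Igkc and Ighm, plasma cell genes. They held 2842 and 2644 CPM of the general endothelial list, 5156 and 8130 CPM of the macrophage list and 895 and 198 CPM of the plasma cell list. EC-like cells without a subtype name had 67.1 CPM (53.9 to 82.6) in the WT library, against 54.1 CPM (44.2 to 65.5) in EC-iCD45KO. Lymphatic EC-like cells had 43.7 CPM (26.7 to 67.5) in WT, an interval that overlaps that of the EC-like cells without a subtype name. Arterial EC-like cells had 3.64 CPM (1.82 to 6.52) and 9.05 CPM (5.97 to 13.2), and capillary EC-like cells 2.15 and 2.59 CPM. The order of venous above the remaining endothelium was therefore the same in both libraries, whereas the order below it was within counting error for several neighbours.

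Classes outside the endothelium give a guide to the background. A UMI of Ackr1 was found in 0.0787% of WT T/NK-like cells (median 2035 UMIs) and 0.233% of EC-iCD45KO T/NK-like cells (median 2749 UMIs). Macrophage-like cells had shares of 0.359% and 0.509%, monocyte-like cells of 0.661% and 1.05%. Fibroblast-like cells had 1.42% and 1.86%, SMC-like cells 0.380% and 1.94%, and plasma-like cells of WT 1.11%. In EC-iCD45KO the shares were 4.87% in Schwann-like, 6.90% in chondrocyte-like and 7.73% in erythroid-like cells, which are described further on. In venous EC-like cells the shares were 29.0% (25.6 to 32.6) and 35.9% (32.8 to 39.0), at medians of 1725 and 1802 UMIs. After each cell was thinned to 1000 UMIs, they were 18.3% (15.2 to 21.7) of 569 WT cells and 27.4% (24.3 to 30.7) of 788 EC-iCD45KO cells, with the 117 and 165 shallower cells left out. Both the share of cells and the amount per cell were thus higher in EC-iCD45KO. A venous cell with Ackr1 held 2.69 UMIs of it on average in WT and 5.94 in EC-iCD45KO, or 1.39 and 1.93 after thinning. Cells with 3 or more UMIs made up 9.91% and 14.8% of the unthinned venous cells.

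A few cells held many of the UMIs. The highest WT cells held 23 and 13 UMIs of Ackr1, and the highest EC-iCD45KO cells 109 and 104. Without those 2 cells of each library the levels were 246 and 542 CPM, with a log2 ratio of 1.14 and an interval up to 1.29 that excludes 0. The difference varied with the depth of the cell. It was 1.18 (0.25 to 2.21) on the log2 scale in cells of 500 to under 1000 UMIs, 0.93 (0.56 to 1.32) from 1000, 0.19 (-0.10 to 0.49) from 2000, and 1.54 (1.35 to 1.73) in cells of 4000 or more. Only in the bin from 2000 to under 4000 UMIs did the interval include 0, with 369 CPM in WT and 423 CPM in EC-iCD45KO.

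Both venous subclusters showed the difference. The subcluster led by Ccl21a, Ackr1, Mctp1, Selp and Col15a1 (subcluster 6) went from 276 CPM (249 to 305) in WT to 618 CPM (586 to 651) in EC-iCD45KO. In the subcluster led by Ighg1, Glycam1, Ackr1, Ubd and Igkc (subcluster 3), the values were 230 CPM (195 to 269) and 559 CPM (515 to 605). Ighg1 and Igkc are immunoglobulin genes, which plasma cells express. Outside the named endothelium, an unnamed cluster led by S100g, Glycam1 and Selp, with Ackr1 among its 10 leading genes, had 58.3 and 135 CPM over 227 WT and 775 EC-iCD45KO cells.

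Markers of other cells differed between the libraries in the venous class too. High endothelial venules are the vessels of lymph nodes through which lymphocytes enter, and their 6 markers summed to 1092 CPM in WT and 154 CPM in EC-iCD45KO. Glycam1, a ligand of L-selectin, was at 878 and 75.4 CPM, and Madcam1, an adhesion molecule of such vessels, at 31.1 CPM and 0 UMIs, which allows up to 0.884 CPM. The B cell list summed to 1038 and 84.9 CPM, the T/NK list to 290 and 22.4 CPM, the plasma cell list to 587 and 235 CPM, and the macrophage list to 2224 and 2615 CPM. The venous list itself was at 4051 and 4528 CPM. The part of these differences in the result for Ackr1 was not tested.

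Ackr1 was then read in venous cells split by those markers. Cells without a UMI of the high endothelial venule list (527 WT and 781 EC-iCD45KO cells) had 257 and 406 CPM, a log2 ratio of 0.66 (0.48 to 0.85). Cells with such a UMI (159 and 172 cells) had 269 and 905 CPM, a log2 ratio of 1.75 (1.52 to 1.98). The WT level was about the same on both sides, and the EC-iCD45KO level was higher where a UMI of the list was present. Cells with such a UMI were deeper, with medians of 2473 against 1625 UMIs in WT and 3129 against 1643 in EC-iCD45KO. The part of depth in this split was not tested. Nearly all venous cells held a UMI of the macrophage, B, plasma, T/NK or neutrophil lists. The 21 WT and 48 EC-iCD45KO cells without one had 18 and 15 UMIs of Ackr1, or 398 CPM (236 to 629) and 150 CPM (83.9 to 247). In these few cells EC-iCD45KO was the lower library, with a log2 ratio of -1.41 (-2.50 to -0.34), whereas the 665 and 905 cells with such a UMI had 258 and 612 CPM.

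**Figure D3:**
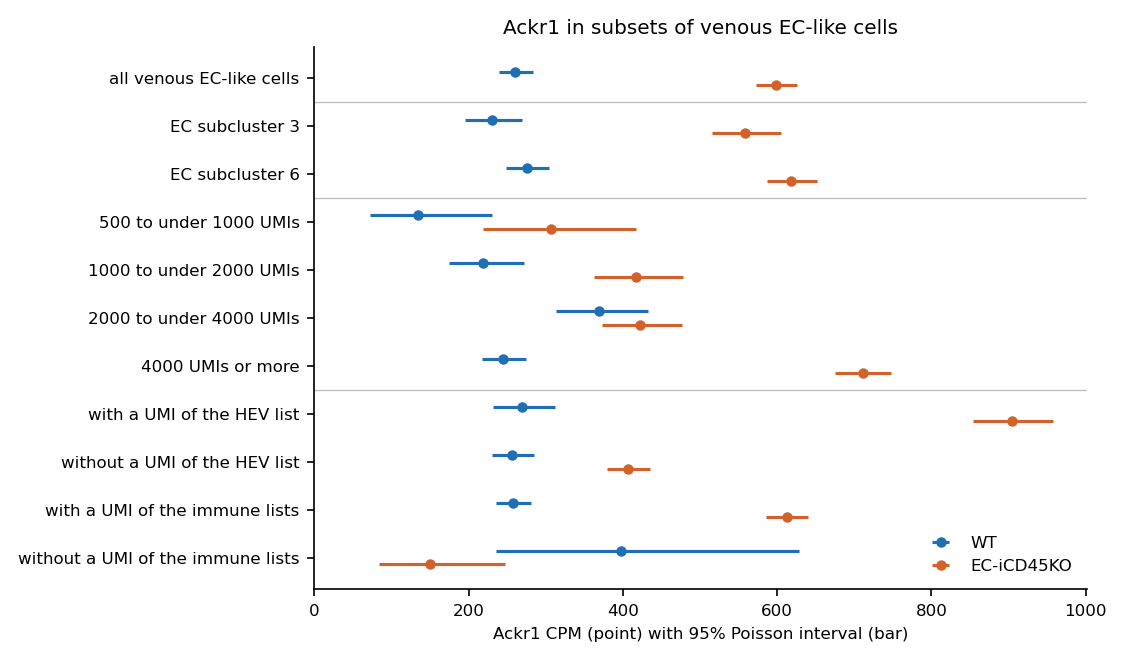
Ackr1 in CPM (point, 95% Poisson interval as bar) in all venous EC-like cells and in subsets by subcluster, by UMIs per cell, and by a UMI of marker lists of high endothelial venules (HEV) or immune cells (macrophage, B, plasma, T/NK and neutrophil lists). EC-iCD45KO (orange) is above WT (blue) in every subset drawn except the 21 and 48 cells without a UMI of the immune lists, and the intervals overlap at 500 to under 1000 UMIs, at 2000 to under 4000 UMIs and in those 21 and 48 cells.

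Of the 10 venous markers, the adhesion molecules of venules had the highest ratios. Selp (P-selectin) was at 298 CPM in WT and 799 CPM in EC-iCD45KO venous cells (log2 ratio 1.42, 1.30 to 1.55), and Sele (E-selectin) at 69.6 and 153 CPM (1.14, 0.87 to 1.41). Aplnr, the apelin receptor, was at 94.4 and 182 CPM. The transcription factor Nr2f2, which sets venous identity, was at 235 and 222 CPM, and Lrg1 and Plvap were at log2 ratios of -0.08 and -0.06. Vwf, the von Willebrand factor gene, was lower in EC-iCD45KO (323 and 215 CPM).

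Venous cells with a UMI of Ackr1 differed from those without one in both libraries. Selp was at 481 CPM in cells with Ackr1 and 171 CPM in cells without it in WT, and at 1612 and 182 CPM in EC-iCD45KO. Sele was at 104 and 46.0 CPM in WT and at 305 and 37.3 CPM in EC-iCD45KO. Glycam1 was at 1176 and 672 CPM in WT and at 153 and 16.6 CPM in EC-iCD45KO, and Madcam1 at 51.2 and 17.3 CPM in WT. Gpihbp1, which anchors lipoprotein lipase on capillary endothelium, had the opposite order, with 191 and 406 CPM in WT and 127 and 657 CPM in EC-iCD45KO. Not all venous markers were higher in cells with Ackr1. Aplnr was lower in them in EC-iCD45KO (152 and 204 CPM), and in WT the interval included 0 (78.6 and 105 CPM). Plvap was within counting error in EC-iCD45KO (1315 and 1294 CPM). The selectin levels of cells without Ackr1 were close between the libraries, and those of cells with it were apart. Cells with Ackr1 were deeper, with medians of 2771 against 1455 UMIs in WT and 2413 against 1565 in EC-iCD45KO, and the part of depth in these differences was not tested.

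In CPM, Ackr3 was lower in the venous cells with Ackr1, but the share of cells with a UMI of it was close. It was at 28.6 CPM in cells with Ackr1 and 52.6 CPM in cells without it in WT, and at 34.8 and 58.6 CPM in EC-iCD45KO. A UMI of Ackr3 was found in 9.05% of cells with Ackr1 and 8.83% of cells without it in WT, and in 10.2% and 9.82% in EC-iCD45KO, although the cells with Ackr1 were deeper. Both genes had a UMI in 18 of 686 WT and 35 of 953 EC-iCD45KO venous cells, where the product of the shares gives 17.7 and 34.1.

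Beyond endothelium, Ackr1 was higher in EC-iCD45KO in several classes, at low levels. In SMC-like cells it was at 1.06 CPM (0.486 to 2.02) in the WT library, against 4.90 CPM (3.75 to 6.29) in EC-iCD45KO. Chondrocyte-like cells had 5 UMIs (1.66 CPM) and 15 UMIs (19.8 CPM). Background there was 6.13% of 10551 genes at least 2-fold higher and 6.96% at least 2-fold lower. Ackr1 passed the 5 CPM minimum only through the library where it is high and is not counted there, and Ackr3 was not 2-fold apart. Schwann-like cells had 0 UMIs in WT, which allows up to 13.2 CPM, and 27 UMIs or 26.9 CPM in EC-iCD45KO. Erythroid-like cells, a lineage for which Ackr1 is known, had 0 UMIs in 347 WT cells, which allows up to 6.70 CPM, and 16 UMIs or 50.5 CPM (28.9 to 82.0) in 181 EC-iCD45KO cells. Over the 12 classes with UMIs in both libraries, the interval of the log2 ratio lay above 0 in 4 (chondrocyte-like, SMC-like, arterial and venous EC-like) and below 0 in 1, the lymphatic EC-like cells.

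Endothelial RNA was present in the same droplets. Of the 14 erythroid-like cells of EC-iCD45KO with Ackr1, 13 also held a UMI of the general or venous endothelial markers, against 105 of the 167 without Ackr1. The counts were 21 of 25 against 296 of 488 in Schwann-like cells and 12 of 12 against 119 of 162 in chondrocyte-like cells. In erythroid-like cells the venous markers Plvap (13.4 and 120 CPM) and Lrg1 (11.2 and 78.9 CPM) were higher in EC-iCD45KO too, while the haemoglobin gene Hba-a1 was at 28186 and 30079 CPM. In Schwann-like cells the direction was the opposite for Plvap (96.8 and 46.8 CPM), with Lrg1 at 101 and 72.7 CPM and Selp at 8.80 and 27.9 CPM, from 2 and 28 UMIs. In chondrocyte-like cells Lrg1 was at 38.6 and 217 CPM and Selp at 4.66 and 30.4 CPM, whereas Pecam1 was lower in EC-iCD45KO (81.6 and 48.9 CPM). There the general endothelial list summed to 277 and 274 CPM and the venous list to 211 and 524 CPM. The part of endothelial RNA in the Ackr1 UMIs of these classes was not tested.

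Ackr1 and Cadm3, a cell adhesion gene, overlap on the minus strand. In GENCODE M21 on GRCm38, Ackr1 (ENSMUSG00000037872) spans chr1:173331886-173333750 and shares 361 of its 1405 exon bases with Cadm3. Reads from the shared bases cannot be assigned with certainty. Cadm3 was at 18.0 CPM in WT and 17.7 CPM in EC-iCD45KO venous cells, nearly the same in both.

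Ackr2 and Ackr4 are the scavengers of lymphatic endothelium, and lymphatic EC-like cells were the leading class of both. The class was well marked in each library. Prox1, the transcription factor that sets lymphatic identity, was at 367 CPM in WT and 559 CPM in EC-iCD45KO. Lyve1, the hyaluronan receptor, was at 841 and 694 CPM, and Ccl21a, the lymphatic ligand of Ccr7, at 11479 and 15037 CPM. Other cells' RNA differed: the B cell list summed to 1523 and 189 CPM, the T/NK list to 459 and 20.1 CPM, the fibroblast list to 2053 and 499 CPM and the macrophage list to 1643 and 3862 CPM. The part of these differences in the results for Ackr1, Ackr2 and Ackr4 was not tested.

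Ackr2 had 6 UMIs in 214 WT cells, which was 13.1 CPM (4.81 to 28.5), and 10 UMIs in 192 EC-iCD45KO cells, which was 20.1 CPM (9.65 to 37.0). The log2 ratio of 0.62 had an interval from -0.98 to 2.36, so a difference was not detectable at this depth. Fibroblast-like cells had 1.95 and 1.83 CPM, and B-like cells 1.29 CPM (0.751 to 2.06) and 4.38 CPM (1.19 to 11.2). Plasma-like, neutrophil-like, T/NK-like, capillary EC-like, dendritic-like and monocyte-like cells held 0 UMIs in both libraries. For the class with the most UMIs in sum, the T/NK-like cells of WT, a count of 0 allows up to 0.358 CPM.

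Ackr4 had 54 UMIs or 118 CPM (88.6 to 154) in the lymphatic EC-like cells of WT and 5 UMIs or 10.1 CPM (3.27 to 23.5) in those of EC-iCD45KO. The log2 ratio was -3.55 (-5.23 to -2.24). Its size depended on the handling of the cells: it was -1.97 as a mean of single-cell CPM, and -5.47, with 1 UMI left in EC-iCD45KO, under a stricter cell filter. As the WT library also held more B-like cells and the cluster with Glycam1, whether its lymphatic cells came from the aorta or from lymph nodes was not tested, and that difference and the genotype cannot be told apart. A UMI was present in 13.1% of WT and 2.08% of EC-iCD45KO cells, or in 12.6% and 0.862% after thinning to 1000 UMIs, which left out 63 and 76 shallower cells. The share in T/NK-like cells was 0.0787% in WT, and EC-iCD45KO had 0 UMIs there, which allows up to 2.48 CPM. The median depths were 1383 and 1181.5 UMIs in the lymphatic cells and 2035 and 2749 in the T/NK-like cells. This class was small and noisy: 10.7% of 11344 genes were at least 2-fold higher in EC-iCD45KO and 11.2% at least 2-fold lower. Of the 4 receptors, all of which reached 5 CPM there, Ackr1 and Ackr4 were at least 2-fold lower and none was higher.

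The lower level of EC-iCD45KO did not rest on the highest WT cells. The WT cells with the most Ackr4 held 11 and 9 UMIs, and without them the WT level was 77.4 CPM and the log2 ratio -2.94 (-4.65 to -1.58). By depth, EC-iCD45KO had 0 UMIs of Ackr4 in its 48 cells of 1000 to under 2000 UMIs and in its 35 cells of 2000 to under 4000, where WT was at 129 and 123 CPM. These counts of 0 allow up to 47.3 and 31.4 CPM. In cells of 500 to under 1000 UMIs the levels were 102 CPM (5 UMIs) and 54.6 CPM (3 UMIs), with an interval of the log2 ratio that includes 0 (-3.58 to 1.47).

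The lymphatic cells divided by Ccl21a. In WT, 118 of the 214 cells (55.1%, 48.2 to 61.9) held no UMI of Ccl21a, and in EC-iCD45KO 64 of the 192 (33.3%, 26.7 to 40.5). Cells without Ccl21a had median depths of 1212.5 and 1115.5 UMIs, those with it 1751.5 and 1199. Prox1 was present on both sides, at 299 and 476 CPM in the cells with Ccl21a and at 442 and 747 CPM in those without. Other lymphatic markers were lower in the cells without Ccl21a. Mmrn1 was at 972 and 901 CPM with Ccl21a and 392 and 360 CPM without it, and Pdpn (podoplanin) at 241 and 288 CPM and 69.1 and 72.1 CPM. Flt4, the receptor for lymphatic growth factors, was at 270 and 331 CPM with Ccl21a and 124 and 216 CPM without it. Reln, secreted by lymphatic vessels, was at 702 and 741 CPM in cells with Ccl21a and at 101 and 321 CPM in those without.

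The receptors differed in where their UMIs fell in this division. All 6 WT and all 10 EC-iCD45KO UMIs of Ackr2 were in cells with Ccl21a, at 24.9 CPM (9.15 to 54.3) and 29.0 CPM (13.9 to 53.4), and the 0 UMIs in cells without it allow up to 13.8 and 19.7 CPM, limits that reach into those intervals. For Ackr4, 52 of the 54 WT UMIs and all 5 of EC-iCD45KO were in cells without Ccl21a, at 240 CPM (179 to 314) and 32.8 CPM (10.6 to 76.4). Ackr1 had 19 of its 20 WT UMIs in cells without Ccl21a, at 87.5 CPM, but 2 of its 4 UMIs of EC-iCD45KO on each side, at 13.1 CPM without and 5.81 CPM with Ccl21a. Ackr3 was on both sides, at 70.6 and 69.7 CPM with Ccl21a and 64.5 and 59.0 CPM without it.

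Too few lymphatic cells held Ackr2 to read its overlap with Ackr4. It was detected in 5 WT cells and Ackr4 in 28, and none held both, where the product of the shares gives 0.654 cells. In EC-iCD45KO these were 10 and 4 cells, none with both, against 0.208. Ackr1 and Ackr4 shared 5 WT cells, out of 13 and 28 with each gene, where the product of the shares gives 1.70. The lower Ackr4 of EC-iCD45KO was thus seen within the cells without Ccl21a, with a log2 ratio of -2.87 (-4.55 to -1.56), in addition to the smaller share of such cells. Ackr1 in these cells was at 13.1 CPM in EC-iCD45KO from 2 UMIs (log2 ratio -2.74, -5.89 to -0.69). The division was made after the values were seen.

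**Figure D4:**
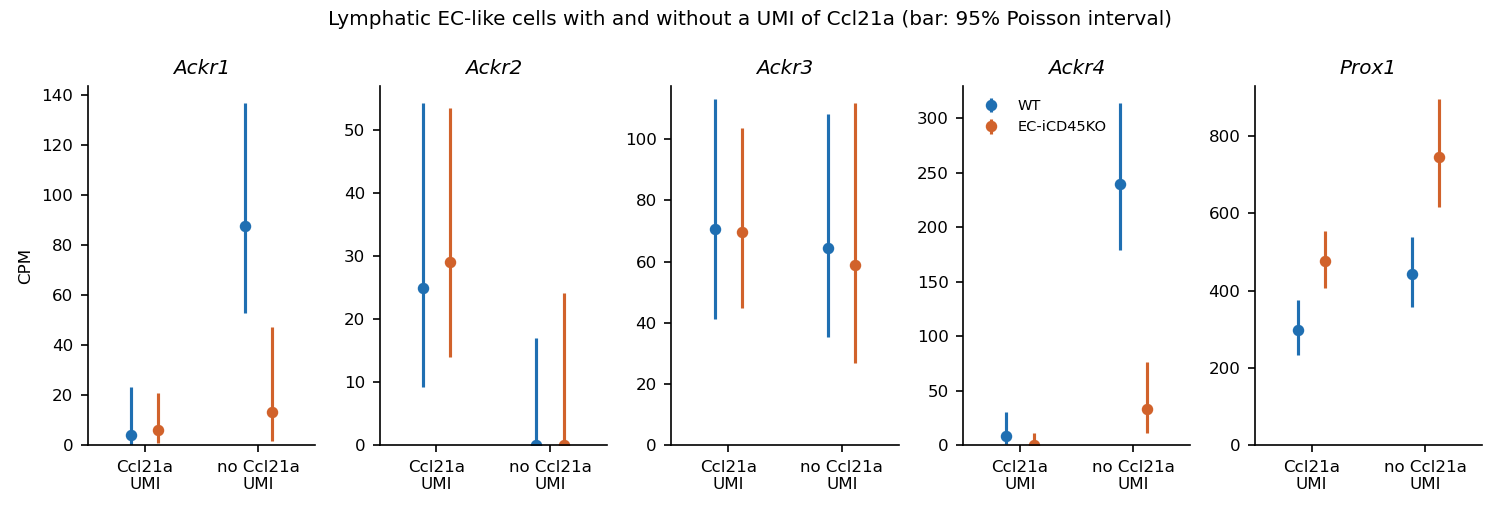
Levels in CPM (point, 95% Poisson interval as bar) of the 4 receptors and of Prox1 in lymphatic EC-like cells with a UMI of Ccl21a (96 WT and 128 EC-iCD45KO cells) and without one (118 and 64 cells). Ackr2 is seen only with Ccl21a, Ackr4 is at 240 CPM in WT cells without Ccl21a, and Ackr3 is between 59.0 and 70.6 CPM on both sides.

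Cells with Ackr4 differed in other genes as well. The 28 WT lymphatic cells with Ackr4 had 12.1 CPM of Ccl21a, from 1 UMI, against 14016 CPM in the 186 without it, although they were deeper (medians of 2162.5 and 1346 UMIs). Lyve1 had 0 UMIs in the former, which allows up to 36.2 CPM, and 1027 CPM in the latter, and Reln was at 60.3 and 496 CPM. Other lymphatic markers were split. Prox1 was at 386 and 363 CPM (log2 ratio 0.09, -0.51 to 0.65) and Flt4 at 181 and 205 CPM, both within counting error. Mmrn1 was lower in the cells with Ackr4 (422 and 758 CPM, log2 ratio -0.84, -1.39 to -0.33), as was Pdpn (60.3 and 181 CPM, -1.59, -3.26 to -0.30). Adm, a ligand of Ackr3, was higher in cells with Ackr4 (434 and 149 CPM), as was Cxcl12 (410 and 235 CPM). In EC-iCD45KO only 4 lymphatic cells held Ackr4, too few for such a description, and the WT pattern of Lyve1 and Reln was not seen in them (485 CPM of Lyve1 against 699 CPM in the rest, and 679 against 610 CPM of Reln).

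Ackr1 was lower in EC-iCD45KO lymphatic EC-like cells as well. It had 20 UMIs or 43.7 CPM (26.7 to 67.5) in 13 WT cells and 4 UMIs or 8.05 CPM (2.19 to 20.6) in 3 EC-iCD45KO cells. The log2 ratio was -2.44 (-4.45 to -0.86). Its direction was thus opposite to that in venous EC-like cells. Without the 2 cells of each library highest in Ackr1, 14 and 1 UMIs remained, and the ratio was -3.89 (-9.29 to -1.17).

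Outside the lymphatic class Ackr4 was sparse. Arterial EC-like cells had 16 UMIs (5.30 CPM) in WT and 10 UMIs (3.35 CPM) in EC-iCD45KO, with the higher level in the subcluster led by Sfrp1, Frmd5 and Eln (9.01 and 6.07 CPM). Chondrocyte-like cells had 12 UMIs (4.00 CPM) and 0 UMIs, which allows up to 3.97 CPM. Only in lymphatic EC-like cells, of the 5 classes with UMIs in both libraries, did the interval of the log2 ratio exclude 0. Ackr4 (ENSMUSG00000079355, chr9:104084157-104126933, minus strand) overlaps Acad11, on the plus strand, at 479 of its 5380 exon bases. Acad11 had 2 and 1 UMIs in lymphatic EC-like cells.

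Ackr3 takes up Cxcl12. It was spread over endothelium, mesenchyme and cartilage-like cells. In WT its highest level was in lymphatic EC-like cells, at 67.7 CPM (46.0 to 96.1), followed by chondrocyte-like cells at 61.9 CPM (53.4 to 71.5), capillary EC-like cells at 46.5 CPM (35.9 to 59.3), venous EC-like cells at 42.8 CPM, arterial EC-like cells at 42.7 CPM and fibroblast-like cells at 37.8 CPM. Neighbours in this order overlapped in their intervals. In EC-iCD45KO the order differed, with arterial EC-like cells at 87.2 CPM (76.9 to 98.5) and fibroblast-like cells at 73.8 CPM (67.1 to 81.0) first. Lymphatic EC-like cells were at 66.4 CPM (45.7 to 93.3) there, an interval that overlaps both.

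The interval of the log2 ratio lay above 0 in arterial EC-like, fibroblast-like and monocyte-like cells. The arterial cells had 129 UMIs in 1265 WT cells, 42.7 CPM (35.7 to 50.8), and 260 UMIs in 999 EC-iCD45KO cells, with a log2 ratio of 1.03 (0.72 to 1.34). In these cells 2.42% of 10841 genes were at least 2-fold higher in EC-iCD45KO and 4.18% at least 2-fold lower, and Ackr3 was among the former. Ackr1 reached the 5 CPM minimum there only through EC-iCD45KO and is not counted. A UMI of Ackr3 was present in 8.22% and 15.2% of the arterial cells, or in 3.79% and 6.78% after thinning without the 262 and 232 shallower cells, against 0.269% and 0.640% of macrophage-like cells, which were deeper (medians of 3571 and 2889 against 1615 and 1713 UMIs). Both arterial subclusters had the higher level in EC-iCD45KO, at 37.3 and 68.5 CPM in the subcluster led by Sfrp1 and at 48.4 and 99.0 CPM in that led by Igf2 and Nebl. By depth the log2 ratio was 0.77, 0.30, 1.11 and 1.07 from the shallowest cells to the deepest, and its interval included 0 in the shallower bins, up to 2000 UMIs.

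The arterial list as a whole was nearly the same in both libraries (3936 and 3991 CPM, log2 ratio 0.02), with 8 of its 12 genes higher and 4 lower in EC-iCD45KO. Dll4, a Notch ligand of arterial endothelium, was at 55.3 and 100 CPM (log2 ratio 0.86), Efnb2 at 97.1 and 158 CPM (0.70) and Gja4, a connexin, at 238 and 344 CPM (0.54), while the abundant Cytl1 was at 1445 and 1265 CPM and Fbln5 at 902 and 807 CPM. Arterial cells with Ackr3 had more of the connexin Gja5 than cells without it in both libraries (245 and 163 CPM in WT, 294 and 175 CPM in EC-iCD45KO). Dll4 was higher in them in EC-iCD45KO (148 and 77.9 CPM), whereas in WT the interval included 0 (77.8 and 51.7 CPM). Sox17, an arterial transcription factor, was nearly the same in cells with and without Ackr3 (193 and 189 CPM in WT, 240 and 241 CPM in EC-iCD45KO). Cells with Ackr3 were deeper, with medians of 2593.5 against 1545 UMIs in WT and 4313 against 1558 in EC-iCD45KO, and the part of depth was not tested. Cxcl12, the ligand, was lower in cells with Ackr3 in EC-iCD45KO (248 and 431 CPM), and close in WT (250 and 281 CPM). In the arterial class the SMC list summed to 763 and 1259 CPM, the macrophage list to 2095 and 3218 CPM, the B cell list to 1115 and 69.8 CPM, the T/NK list to 342 and 70.1 CPM and the chondrocyte list to 155 and 20.5 CPM. Their part in the difference of Ackr3 was not tested.

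In fibroblast-like cells Ackr3 had 194 UMIs in 3302 WT cells, 37.8 CPM (32.7 to 43.6), and 444 UMIs in 2467 EC-iCD45KO cells, 73.8 CPM. The log2 ratio of 0.96 (0.72 to 1.21) was just under 2-fold, a fold reached by 1.99% of 11135 genes upward and 5.56% downward. The class joins 2 clusters. The cluster led by Sfrp4, Fbln1 and Cygb went from 56.2 CPM (45.4 to 68.8) in 348 cells to 100 CPM (89.6 to 112) in 431 cells, and the cluster led by C7 and Clec3b from 29.0 to 44.0 CPM in 2954 and 2036 cells. The deeper, Sfrp4-led cluster was thus higher in Ackr3 and made up a larger part of the EC-iCD45KO class, and within each cluster EC-iCD45KO was the higher library. The fibroblast list summed to 15368 and 20518 CPM in the class, the B cell list to 1565 and 110 CPM, the T/NK list to 482 and 86.1 CPM, the high endothelial venule list to 375 and 47.0 CPM and the neutrophil list to 216 and 577 CPM. Their part in the difference was not tested.

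In the other named classes with UMIs in both libraries the interval for Ackr3 included 0, and 5 of them are given here. The log2 ratio was 0.12 (-0.12 to 0.36) in SMC-like cells at 27.6 and 29.9 CPM, 0.17 (-0.21 to 0.57) in venous, 0.28 (-0.18 to 0.74) in capillary and -0.03 (-0.78 to 0.73) in lymphatic EC-like cells, and 0.07 (-0.42 to 0.53) in chondrocyte-like cells. Ackr3 was the only receptor at 5 CPM or more in SMC-like and capillary EC-like cells and was not 2-fold apart in either, where 1.59% and 2.8% of genes were at least 2-fold higher and 3.3% and 4.41% at least 2-fold lower in EC-iCD45KO. Monocyte-like cells had 3 UMIs (0.885 CPM) in WT and 43 UMIs (5.43 CPM) in EC-iCD45KO, so that the log2 ratio was 2.62 (0.97 to 4.95). Over 15 classes with UMIs in both libraries the interval lay above 0 in 3 (monocyte-like, arterial EC-like and fibroblast-like cells) and below 0 in none. Among lymphocytes Ackr3 was low (4.30 and 5.78 CPM in T/NK-like cells) except in the cluster led by Trdc, Cd163l1 and Il17a, genes of gamma-delta T cells, where 32 UMIs in 500 WT cells gave 29.5 CPM and 6 UMIs in 138 EC-iCD45KO cells gave 15.2 CPM. Ackr3 (ENSMUSG00000044337, chr1:90203980-90216751) and Ackr2 (ENSMUSG00000044534, chr9:121898355-121911074), both on the plus strand, overlap no other annotated gene.

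The ligands were read in the same classes, from lists drawn up with earlier results known. Of the 9 ligands of Ackr1, 5 had at least 5 CPM in each library in venous EC-like cells, and 4 of these were at least 2-fold higher and 1 at least 2-fold lower in EC-iCD45KO, where 2.77% and 5.41% of all genes with a mean of 5 CPM were. Their median log2 ratio was 1.20, against -0.02 over those genes. By the same filter on the mean, 6 ligands passed, with 5 higher, 1 lower and a median of 1.28. The monocyte attractants Ccl2 (34.0 and 106 CPM) and Ccl7 (34.0 and 69.5 CPM) and the neutrophil attractants Cxcl1 (83.2 and 213 CPM) and Cxcl2 (334 and 766 CPM) were the higher. Cxcl3, at 0.973 and 13.6 CPM, is the other one, and passed 5 CPM only in EC-iCD45KO. Ccl5, a product of T and NK cells, was the lower (72.5 and 12.4 CPM). The highest levels of Cxcl2 were in neutrophil-like cells (36840 and 38107 CPM) and those of Ccl5 in T/NK-like cells (1422 and 1479 CPM). The part of such cells' RNA in the counts of other classes was not tested.

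Some other classes had the directions of the venous cells, and some did not. In fibroblast-like cells Ccl2 was at 79.6 and 351 CPM, Ccl7 at 92.5 and 495 CPM and Cxcl1 at 116 and 342 CPM. In arterial EC-like cells Ccl7 was at 29.5 and 160 CPM, while Cxcl1 was at 62.6 and 76.1 CPM. Cxcl3 was lower in EC-iCD45KO in neutrophil-like cells (1019 and 764 CPM). Venous cells with Ackr1 had more Cxcl1 than cells without it, at 105 and 68.2 CPM in WT and 375 and 90.2 CPM in EC-iCD45KO. Cxcl2 was higher in WT cells with Ackr1 (411 and 280 CPM) and lower in EC-iCD45KO cells with it (711 and 807 CPM), and the interval for Ccl2 included 0 in WT (44.1 and 27.1 CPM). Of the 10 ligands of Ackr2, 7 had at least 5 CPM in each library in lymphatic EC-like cells. Of these, 2 were at least 2-fold higher (Ccl4 and Ccl7) and 1 lower (Ccl5). By the filter on the mean, 8 passed, with 3 higher and 1 lower, in a class where 10.7% and 11.2% of all genes with a mean of 5 CPM were.

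**Figure D5:**
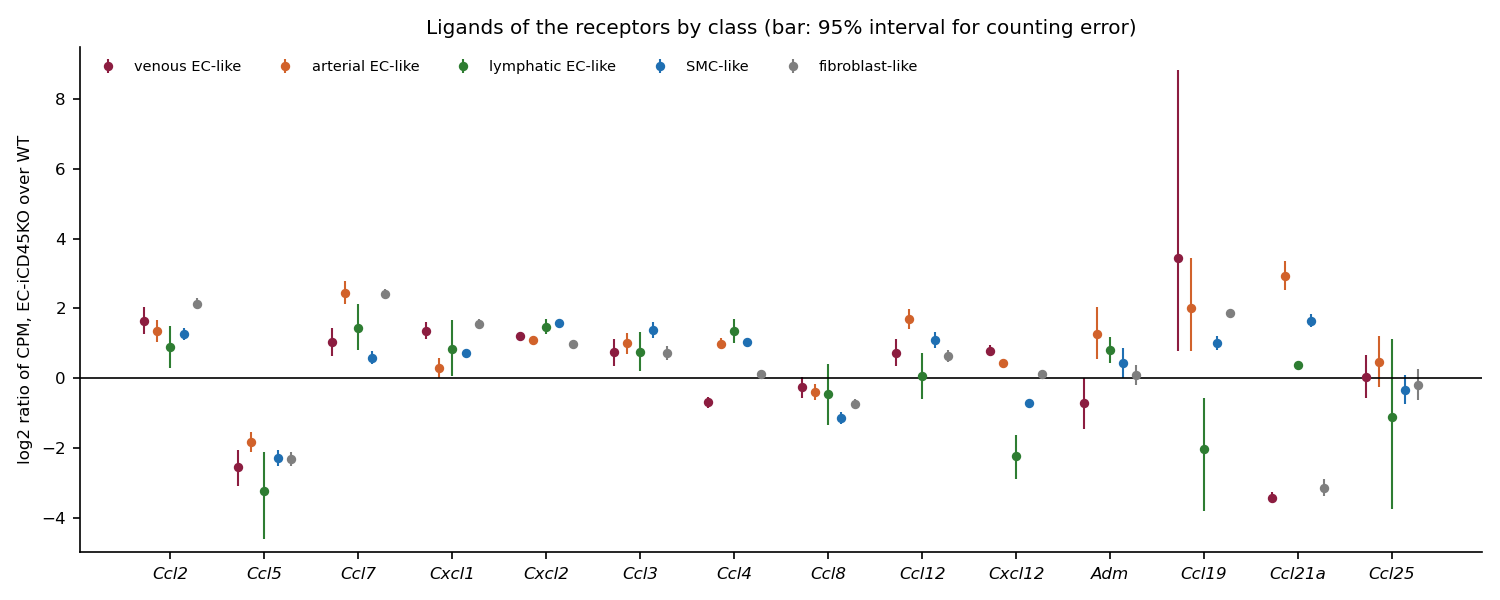
log2 ratio of CPM, EC-iCD45KO over WT, for 14 ligands of the receptors in 5 classes (points, with 95% intervals for counting error as bars). Ccl2, Ccl7 and Cxcl2 lie above 0 and Ccl5 below 0 in all 5 classes, whereas Cxcl12 and Ccl21a differ in direction between classes.

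The ligands of Ackr3 and Ackr4 went different ways by class. Cxcl12 was highest in fibroblast-like cells (1361 and 1469 CPM), followed by capillary EC-like cells (703 and 940 CPM). It was lower in EC-iCD45KO in lymphatic EC-like cells (267 and 56.3 CPM, log2 ratio -2.24, -2.89 to -1.64) and in SMC-like cells (567 and 346 CPM). In the lymphatic cells without Ccl21a it was at 336 and 52.4 CPM. Adm was highest in lymphatic EC-like cells, at 201 and 352 CPM. Cxcl11, the remaining ligand on the list for Ackr3, was not found under that symbol in the matrices.

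Ccl21a was lower in EC-iCD45KO in venous EC-like cells (1247 and 115 CPM) and fibroblast-like cells (234 and 26.6 CPM), but higher in arterial EC-like cells (18.6 and 143 CPM) and SMC-like cells (32.3 and 101 CPM). Ccl19 was higher in fibroblast-like cells (304 and 1107 CPM) and lower in lymphatic EC-like cells (41.5 and 10.1 CPM). Ccl25 was low in every endothelial class, at 18.0 and 18.6 CPM in venous cells. Of the 3 ligands of Ackr4, none was at least 2-fold higher in lymphatic EC-like cells and 2 were at least 2-fold lower, Ccl19 and Ccl25, the latter from 6 and 3 UMIs, where 10.7% of all genes were that much higher and 11.2% lower.

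The signalling receptors for these ligands lay mainly in leukocytes. Ccr7, the receptor for Ccl19 and Ccl21, was highest in B-like cells (313 and 205 CPM), and in lymphatic EC-like cells it had 27 UMIs (59.0 CPM) in WT and 0 in EC-iCD45KO, which allows up to 6.04 CPM. Cxcr4, the receptor for Cxcl12, was at 24.8 and 16.2 CPM in venous EC-like cells, and Ccr2, the receptor for Ccl2 and Ccl7, at 15.1 and 32.1 CPM. Gpr182, an endothelial receptor that also takes up chemokines, was at 52.4 and 54.3 CPM in lymphatic and 53.0 and 41.0 CPM in venous EC-like cells, without the differences seen for Ackr1 and Ackr4 there. Ccrl2, which binds chemerin, was highest in neutrophil-like cells (819 and 945 CPM). Of the 6 arrestins and receptor kinases, 5 reached 5 CPM in venous EC-like cells and 0 were 2-fold apart, a count near the background of 2.77% and 5.41%. Among them Grk5, a kinase that marks activated receptors for arrestin binding, was at 191 and 172 CPM.

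The genes with the most similar distribution were ranked by Pearson correlation of log2(CPM + 1) over 32 clusters, both libraries summed, among 11015 genes. The clusters share libraries and differ in depth, so these values are a description. For Ackr1 they were Gchfr (0.88), Ubd (0.88), Tll1 (0.87), Kcnh1 (0.86) and Lhx6 (0.86), each highest in a venous EC-like subcluster. For Ackr2 they were Gm14964 (0.84), Nppc (0.84), Slc38a4 (0.83), Slc16a12 (0.82) and Slc29a4 (0.81), each highest in the lymphatic cluster. For Ackr4 they were Tbx1 (0.87), a T-box transcription factor, Pkhd1l1 (0.87), Hoxd10 (0.80), Col23a1 (0.80) and Gm14964 (0.79), of which Col23a1 was highest in an arterial subcluster and the others in the lymphatic cluster.

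For Ackr3 the most similar genes were Adarb1 (0.93), an RNA-editing enzyme, Nedd4 (0.92), a ubiquitin ligase, Tmtc1 (0.91), Zcchc14 (0.91) and Grb10 (0.91). Their highest levels were in capillary and arterial EC-like subclusters, the Sfrp4-led fibroblast-like cluster and the lymphatic cluster. Among the receptors themselves the highest correlations were 0.63 between Ackr2 and Ackr4, both highest in the lymphatic cluster, and 0.56 between Ackr1 and Ackr3. The lowest was 0.20, between Ackr1 and Ackr2.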

How the data were processed

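The deposited files were 2 filtered 10x Genomics matrices of UMI counts, 1 per group, made by the authors with Cell Ranger 7.1.0 on mm10, per the submitters' processing notes. The kit version and the counting of intronic reads are not given in the sources used here. The libraries held 39849 (WT) and 30278 (EC-iCD45KO) barcodes and 92058043 and 88967918 UMIs, and 0 columns of values were set aside unused. Levels printed are the counts of a class divided by all its counts, as CPM.

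Kept cells had 500 UMIs or more, 300 genes or more and mitochondrial UMIs of 10% or less (39503 and 28960). Scrublet's own threshold marked 3 of 39716 WT and 0 of 29991 EC-iCD45KO cells, so it had not worked, and the 10% of cells with the highest scores in each library were removed in its place (3950 and 2896). The libraries were clustered together without batch correction (scanpy 1.11.5, leidenalg 0.10.2, 2000 variable genes, 30 components, 20 neighbours, Leiden resolution 1). The receptors, their ligands and related receptors, and Ptprc were kept out of the clustering. Clusters were named from 23 marker lists of 196 genes, requiring at least 3 detected markers, an excess of 1 on the log2 scale over other clusters and a lead of 0.75 over the next list. Endothelial clusters were then subclustered (resolution 0.6) on 1392 genes with at least 20 UMIs in endothelial clusters and a level there over 2-fold that elsewhere. The naming thresholds, that restriction to endothelial genes and the splits by Ccl21a, high endothelial venule and immune genes were set after the data were seen.

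Intervals are exact (Poisson for levels, Clopper-Pearson for shares, conditional binomial for ratios). They were run on simulated Poisson counts, for which such intervals hold by construction. Those counts leave out that a few cells can hold many of the UMIs. UMI sums of 0 are given with the level that 3 UMIs would make. With 1 library per group no test between groups was made. The genes named are the 4 receptors, the genes of the lists (their ligands, the signalling receptors, related scavenging receptors, arrestins and receptor kinases) and, for each receptor, the 5 genes most like it over clusters among those with at least 20 CPM in 1 cluster. Cell type markers, leading genes of clusters and genes sharing exon bases were named in addition, after their values were seen. The receptors and lists were chosen with earlier results of these data known. Alternatives were another cell filter, no doublet removal, resolution 2, centring by library, other denominators, means of single-cell CPM, other thinning, and subsets of cells. Other software was matplotlib 3.10.9, pandas 2.3.3, scipy 1.17.1 and numpy 2.4.6 under Python 3.11.15.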

Additional observations from a re-analysis of the deposited data

Results flagged for a closer look

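Ackr1 differed in direction between venous and lymphatic EC-like cells: the log2 ratio of EC-iCD45KO over WT was 1.20 in the former and -2.44 in the latter. Each class had 1 library per group, with 536 and 2032 UMIs of Ackr1 in the venous and 20 and 4 UMIs in the lymphatic cells, and both intervals for counting error lay away from 0. Of the other endothelial classes, arterial EC-like cells were at 1.31, with an interval above 0, and EC-like cells without a subtype name at -0.31, with an interval that includes 0. The difference between the classes was not tested.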

How the results depend on the processing

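No paired analysis was possible because WT and EC-iCD45KO were 1 library each, and for the same reason no library could be left out. Each receptor was recomputed only in its leading named class, which for Ackr3 was the lymphatic EC-like cells. The Ackr3 ratios in arterial EC-like and fibroblast-like cells are therefore not part of the counts that follow. Of the 56 levels recomputed, 48 stayed within the counting interval of the value reported, as did 29 of 34 log2 ratios and 10 of 16 shares. With at least 1000 UMIs, 500 genes and at most 5% mitochondrial UMIs per cell, Ackr1 in venous EC-like cells was at 347 and 747 CPM (WT and EC-iCD45KO), and Ackr4 in lymphatic EC-like cells of EC-iCD45KO was at 2.45 CPM from 1 UMI, with a log2 ratio of -5.47. That filter left no class with the name arterial. Leiden resolution 2 gave 294 CPM of Ackr1 in WT, and leaving mitochondrial, ribosomal protein and haemoglobin genes out of the denominator gave 311 and 706 CPM. As means of single-cell CPM, Ackr1 was at 456 CPM in EC-iCD45KO (log2 ratio 0.92) and Ackr4 at 29.3 CPM (log2 ratio -1.97). Thinning to 2000 UMIs gave shares of 32.2% and 39.4% for Ackr1 in venous EC-like cells. For Ackr3 it gave 14.1% in lymphatic EC-like cells of WT. No thinning gave 29.0% and 35.9% for Ackr1 in venous EC-like cells, and 12.5% for Ackr3 in lymphatic EC-like cells of EC-iCD45KO. Of the alternatives chosen after seeing the data, venous cells without a UMI of the high endothelial venule list gave a log2 ratio of 0.66 for Ackr1, and those without a UMI of the immune lists gave -1.41, from 18 and 15 UMIs. The cause was not tested. Lymphatic cells with Ccl21a gave no ratio for Ackr4, since EC-iCD45KO had 0 UMIs there. Depth limits Ackr2, with 6 and 10 UMIs in its leading class, and Ackr4 in EC-iCD45KO, with 5.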
